A study of Mus musculus with 6 samples.

Results

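The Hox genes of the mouse aorta were taken as every protein-coding gene whose symbol joins Hox, a cluster letter from a to d and a number, which gave 39 of the 35275 genes in the table. Members were chosen by name and biotype, but the family itself was selected on measured values, the FPKM differences between genotypes in these same libraries. Those differences are therefore given as a description and support nothing. RNA from whole aorta was sequenced in 6 libraries, 3 wild-type and 3 EC-Jag1KO, a genotype in which the Notch ligand Jagged1 is missing from endothelial cells. The series title speaks of mature endothelial cells. The sources used here do not name the Cre driver, the strain or the age of the mice, or say whether the 3 libraries of a group came from separate animals, so the spread between libraries may be partly technical. Levels are FPKM, fragments scaled to gene length and to the reads in genes of each library, which makes levels of different genes comparable per length.

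Hox genes encode homeodomain transcription factors that give cells a position along the head-to-tail axis. They sit in 4 clusters, HoxA to HoxD, and members with the same number in different clusters, called paralogs, descend from one ancestral gene. Low numbers are switched on early and far forward in the embryo and high numbers late and far back, in the order in which they lie on the chromosome. Adult smooth muscle cells and fibroblasts keep much of this pattern, and vessels from different body regions differ in the Hox genes they express.

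The targeted gene, Jag1, stood at 9.86, 10.6 and 16.9 FPKM in the wild-type group and 13.5, 9.42 and 19.6 FPKM in the EC-Jag1KO group. These groups overlap, and a level in the whole wall does not check a deletion in its endothelium, since other cells of the wall also express Jag1. Defining markers of the labelled tissue were present in every library, with the smooth muscle actin gene Acta2 at 6173 to 7672 FPKM and the endothelial gene Pecam1 at 172 to 230 FPKM. Wild-type replicate 3 and EC-Jag1KO replicate 3 had 26.9 and 40.7 FPKM of Xist, the X-inactivation transcript of female cells, and the other 4 had at most 0.0738 FPKM. The brown fat gene Ucp1 ranged from 8.74 FPKM in wild-type replicate 2 to 263 FPKM in wild-type replicate 3.

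In wild-type aorta the family was dominated by middle-numbered genes of HoxA and HoxB. The 11 HoxA genes (chr6:52155590-52260880 in mm10) summed to 66.9 ± 1.6 FPKM and the 10 HoxB genes (chr11:96194316-96368256) to 66.2 ± 7.5 FPKM (SD, n = 3). HoxC, with 9 genes at chr15:102921103-103036852, summed to 10.3 ± 2.2 FPKM, and HoxD, with 9 genes at chr2:74668310-74765142, to 1.90 ± 0.52 FPKM. Paralog numbers 4 to 8 held 77.6% of all Hox FPKM in the wild-type group, and the 5 genes of highest level held 58.0%.

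**Figure D1:**
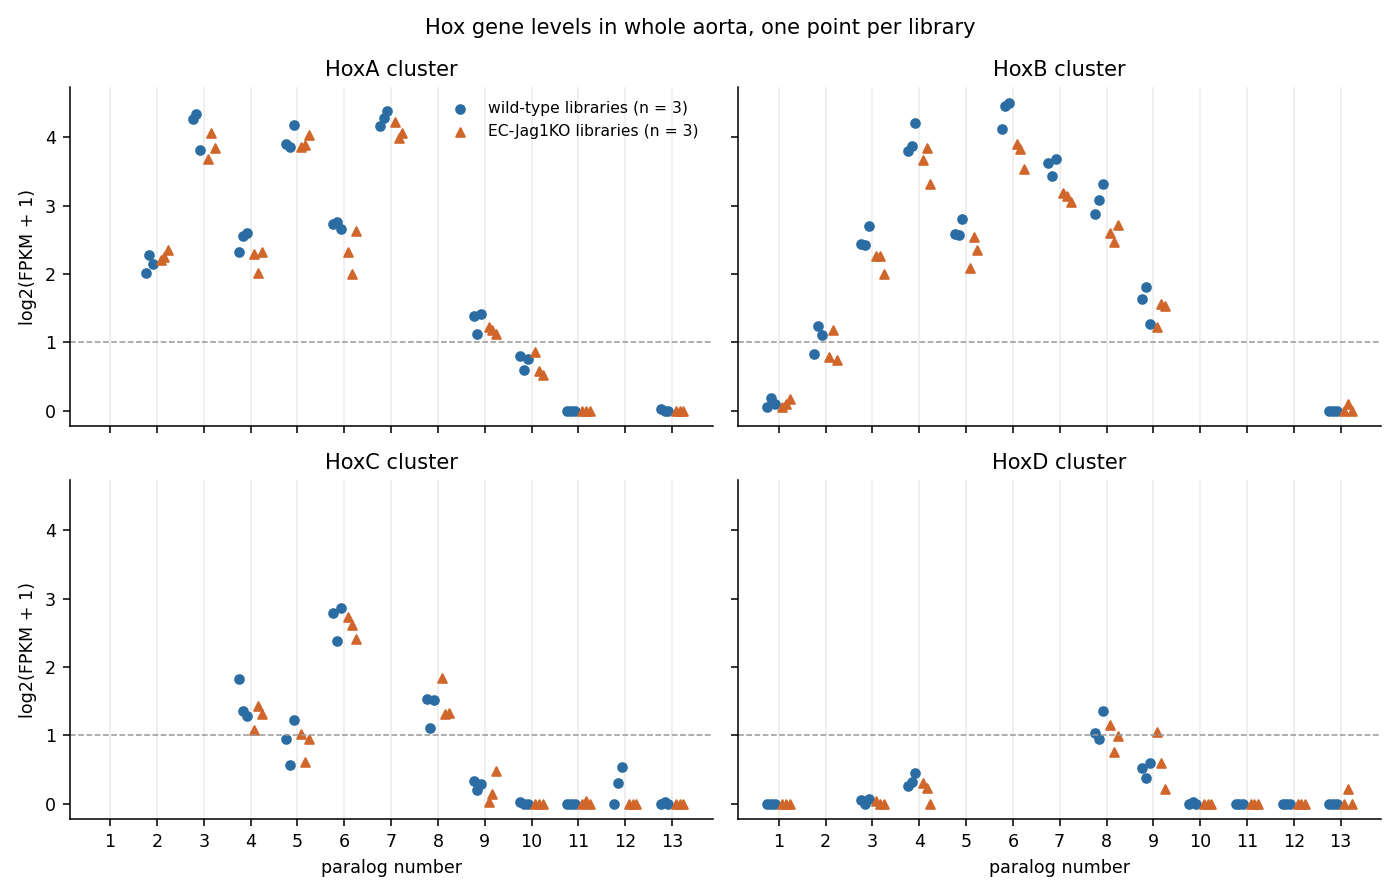
Level of 38 of the 39 Hox genes on the log2(FPKM + 1) scale by cluster and paralog number, with 1 point per library (circles wild-type, triangles EC-Jag1KO) and a dashed line where FPKM is 1. HoxA and HoxB carry the signal at numbers 3 to 8, HoxD stays near 0 except at numbers 8 and 9, and no gene numbered 10 or above reaches the line.

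Of the 39 genes, 19 averaged 1 FPKM or more across all 6 libraries and entered the test across all genes. All 19 belong to numbers 1 to 9, where there are 27 genes, and 13 of the 15 genes numbered 4 to 8 are among them. The cluster split was 8 of 11 in HoxA, 7 of 10 in HoxB, 3 of 9 in HoxC and 1 of 9 in HoxD. Hoxd8 lay just inside that limit at a mean of 1.07 FPKM and Hoxb2 just outside it at 0.993 FPKM. Reads behind the 19 genes numbered 36 to 1249 per gene and library.

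Ranked by wild-type level, Hoxb6 came first at 19.7 ± 2.9 FPKM (n = 3), followed by Hoxa7 at 18.3 ± 1.5, Hoxa3 at 16.8 ± 3.3, Hoxa5 at 14.8 ± 2.0 and Hoxb4 at 14.7 ± 2.4 FPKM. The wild-type ranges of neighbours overlapped in this stretch, so its order is not resolved. Hoxb4, Hoxb7 at 11 ± 1.0, Hoxb8 at 7.59 ± 1.28 and Hoxa6 at 5.57 ± 0.25 FPKM were separated from each other, each by ranges that do not overlap. Over the 19 genes, 13 of 18 neighbouring pairs overlapped. In the EC-Jag1KO group the order of means began with Hoxa7, Hoxa5 and Hoxa3, with Hoxb6 at rank 4, at 12.6 ± 1.8 FPKM.

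Genes numbered 10 to 13, which mark the hind end of the trunk, the limbs and the genital region in the embryo, were at or near the limit of detection. None of these 12 genes reached a mean of 1 FPKM. Hoxa10 was the exception in having reads in every library, at 0.436 to 0.819 FPKM, and the highest value of any other was 0.453 FPKM. Hoxa11, Hoxd11 and Hoxd12 had 0 reads in all 6 libraries, as had the front-most HoxD gene Hoxd1. For these 4 genes a count of 0 allows up to 3 reads, which is 0.0344 to 0.0810 FPKM depending on gene and library, for counting error only. Hoxd13 had 8 reads and Hoxb13 had 3, all of them in EC-Jag1KO replicate 2, while Hoxc12 had 6 and 12 reads in wild-type replicates 2 and 3 and 0 in the other 4 libraries.

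Starts of genes on both sides of this divide are shown here. The windows are RefSeq promoters in GRCm38.p6, from 250 bases before to 50 bases after the start, of Hoxb8 (plus strand of chr11:96281655-96281954), Hoxb4 (plus strand of chr11:96318017-96318316) and Hoxd13 (plus strand of chr2:74667975-74668274). Capitals mark CG dinucleotides, the sites of DNA methylation in mammals.
Hoxb8: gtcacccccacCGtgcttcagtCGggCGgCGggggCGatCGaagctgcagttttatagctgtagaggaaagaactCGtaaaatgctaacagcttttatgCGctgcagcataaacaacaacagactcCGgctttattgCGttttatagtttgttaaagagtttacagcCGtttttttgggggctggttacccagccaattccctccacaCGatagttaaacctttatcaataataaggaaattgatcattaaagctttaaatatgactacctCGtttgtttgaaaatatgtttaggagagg
Hoxb4: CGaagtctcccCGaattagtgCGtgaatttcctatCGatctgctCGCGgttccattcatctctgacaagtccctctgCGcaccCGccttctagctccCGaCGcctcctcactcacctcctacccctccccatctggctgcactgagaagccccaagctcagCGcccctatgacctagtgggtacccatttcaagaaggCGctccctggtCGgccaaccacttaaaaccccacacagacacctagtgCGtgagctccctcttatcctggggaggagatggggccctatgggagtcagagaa
Hoxd13: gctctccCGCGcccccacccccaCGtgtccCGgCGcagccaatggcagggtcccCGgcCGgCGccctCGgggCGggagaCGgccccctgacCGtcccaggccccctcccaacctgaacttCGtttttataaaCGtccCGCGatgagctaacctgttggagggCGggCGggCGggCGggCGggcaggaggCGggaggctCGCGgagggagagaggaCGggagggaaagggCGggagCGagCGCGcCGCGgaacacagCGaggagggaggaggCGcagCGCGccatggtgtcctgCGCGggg
The expressed Hoxb8 and Hoxb4 windows hold 13 and 14 CG pairs, and the Hoxd13 window holds 37. RefSeq gave 24 such windows for 22 of the 39 genes. The median number of CG pairs was 11 in the 10 windows of genes averaging 1 FPKM or more, 20 in the 14 windows of genes below it, and 7 over 32851 promoters of all genes. Each group ranged widely, from 4 to 29 and from 4 to 45.

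Short motifs were searched in these windows on both strands. The joint site of PBX and HOX proteins, written TGATNNAT, was found in 4 of the 24 Hox windows (16.7%), those of Hoxb8, Hoxb1, Hoxa2 and Hoxd11, and in 8.85% of all promoters. The core of the Notch effector RBPJ, TGGGAA, was found in 5 (20.8%), those of Hoxa3, Hoxa6, Hoxa9, Hoxa13 and Hoxd3, and in 25.6% of all promoters. Such matches are letters in a window, not measured binding.

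Summed over the family, Hox transcripts stood at 138, 143 and 155 FPKM in wild-type libraries and at 119, 118 and 112 FPKM in EC-Jag1KO libraries. The groups do not overlap, and the means, 145 ± 9 and 116 ± 4 FPKM (n = 3 each), differ by 19.9% of the wild-type level. HoxB carried 66.3% of that difference, with 59.2, 65.2 and 74.1 against 47.9, 50.8 and 42.2 FPKM. HoxA, at 65.3, 68.4 and 67.1 against 58.0, 56.7 and 60.2 FPKM, was also separated, by 12.8% against 29.0% for HoxB. HoxC and HoxD overlapped between genotypes. In bulk tissue, fewer cells of a type and less RNA per cell cannot be told apart.

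A ratio of 2 clusters within one library does not depend on how much of the library is Hox RNA. HoxB relative to HoxA was 0.908, 0.953 and 1.1 in wild-type and 0.825, 0.896 and 0.701 in EC-Jag1KO libraries. Each EC-Jag1KO library lay below each wild-type library, the closest pair being 0.908 and 0.896, and this ratio was not tested. Among paralog pairs, Hoxb7 relative to Hoxa7 was 0.601 ± 0.066 against 0.483 ± 0.036 and did not overlap. Hoxb6 relative to Hoxa6, at 3.54 ± 0.60 against 3.31 ± 1.21, and Hoxb4 relative to Hoxa4, at 3.18 ± 0.34 against 3.22 ± 1.08, overlapped. Hoxb5 relative to Hoxa5, at 0.361 ± 0.008 against 0.286 ± 0.058, was only just separated, the closest pair being 0.352 and 0.351.

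**Figure D2:**
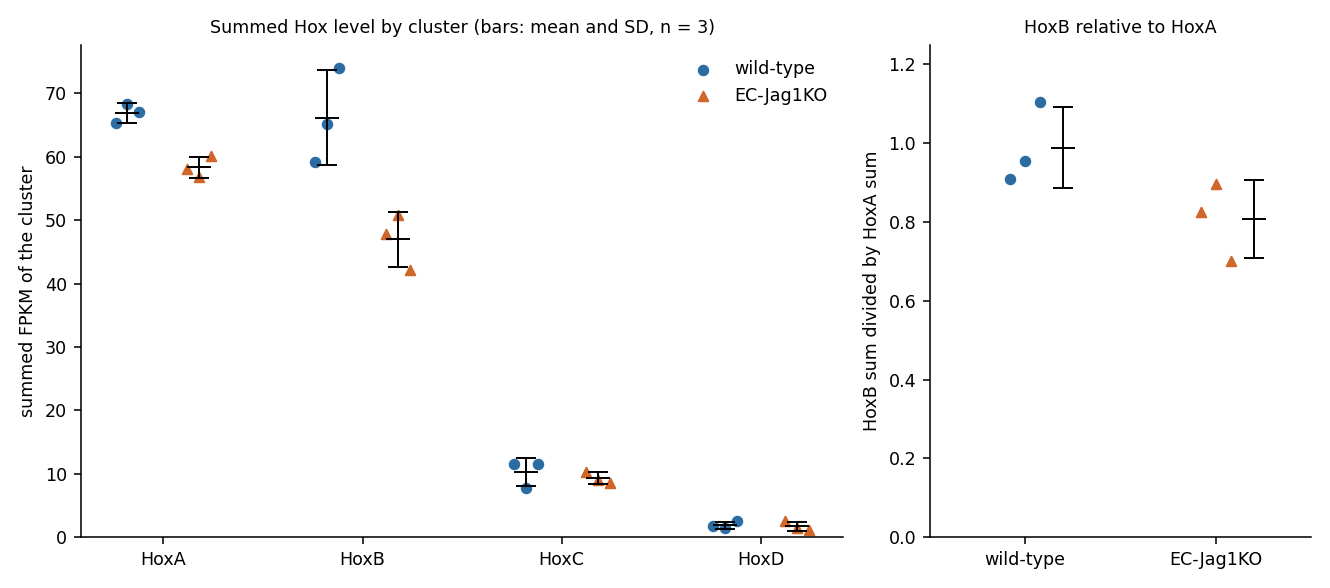
Summed FPKM of each Hox cluster (left) and the HoxB sum divided by the HoxA sum (right), with 1 point per library and bars for mean and SD (n = 3). The HoxB means are 66.2 FPKM in the wild-type group and 47.0 FPKM in the EC-Jag1KO group and the HoxA means 66.9 and 58.3 FPKM, and the ratio is lower in all 3 EC-Jag1KO libraries than in the 3 wild-type libraries.

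Across the 19 tested genes, 17 lay lower and 2 higher in EC-Jag1KO libraries, where 50% of all 12165 tested genes lay lower. The median log2 fold change on the log2(FPKM + 1) scale was -0.22, against -0.00022 over all tested genes. Groups did not overlap in 7 of the 19, all lower, a pattern found in 6.73% of all tested genes, and in 0 of the 19 were all EC-Jag1KO libraries higher, against 6.84%. None passed limma's test with Benjamini-Hochberg adjustment over all genes (0 of 19, where 0% of all genes were called), with adjusted p from 0.402 to 0.943. At an unadjusted p under 0.05 there were 5, all lower, where 3.46% of all tested genes were lower and 4.25% higher at that level, and limma voom on recovered reads called 0 as well. Hox neighbours are known to share enhancers, so these genes are not independent of each other.

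**Figure D3:**
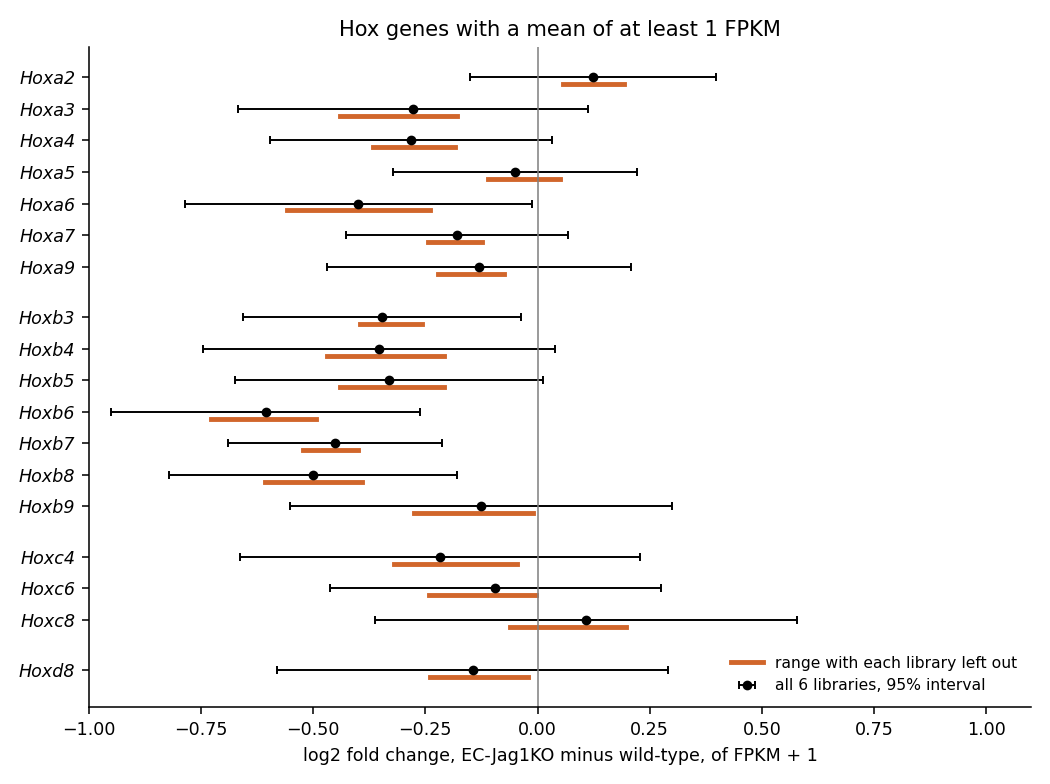
Log2 fold change (EC-Jag1KO minus wild-type, on FPKM + 1) of 18 of the 19 tested Hox genes in cluster order, with 95% intervals of the limma fit in black and the range of values with each library left out in orange. All 7 HoxB genes lie left of 0, and the intervals of 13 of the 18 genes shown include 0.

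With all 6 libraries, the 3 genes that stood furthest from wild-type were neighbours in HoxB. This ranking did not hold in several alternatives. Without both Xist-positive libraries Hoxa6 was furthest at -0.59 and Hoxa3, at -0.43, passed Hoxb6 and Hoxb7. Hoxa6, at -0.56, passed Hoxb6 and Hoxb7 without EC-Jag1KO replicate 3. Hoxa3 and Hoxa6, at -0.44 and -0.43, passed Hoxb7 and Hoxb8 without wild-type replicate 3. Hoxb4, at -0.47, passed Hoxb7 and Hoxb8 without EC-Jag1KO replicate 2, and Hoxb5, at -0.44, passed Hoxb8. Hoxb4 and Hoxb7 were level at -0.43 without wild-type replicate 1. Hoxd8 and Hoxa6, at -0.64 and -0.63, passed Hoxb7 with the smooth muscle covariate. Hoxb6 (plus strand of chr11:96292476-96301569), which patterns the trunk skeleton and lateral mesoderm, measured 16.3, 20.9 and 21.7 FPKM in the wild-type group and 13.9, 13.2 and 10.6 FPKM in the EC-Jag1KO group. The lowest wild-type library stayed above the highest EC-Jag1KO library, and the log2 fold change was -0.61 with an SE of 0.15 and a 95% interval from -0.95 to -0.26. Hoxb7 (chr11:96286623-96290162), also a trunk-level gene, measured 11.2, 9.83 and 11.8 against 8.07, 7.83 and 7.32 FPKM. The groups are apart, and its log2 fold change was -0.45, with an SE of 0.10 and an interval from -0.69 to -0.21. Hoxb8 (chr11:96281905-96285315), known for its role in trunk patterning and in microglia and myeloid progenitors, measured 6.36, 7.49 and 8.92 against 5.06, 4.50 and 5.56 FPKM. Its groups did not overlap either, with a log2 fold change of -0.50 and an interval from -0.82 to -0.18. With each library left out in turn the 3 values stayed between -0.73 and -0.39.

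No other gene model of the table overlaps Hoxb7 or Hoxb8. Hoxb6 and Hoxb5 are overlapped on the other strand by the noncoding gene Hoxb5os, and the strand setting of the count is not given. Hoxb5os itself measured 6.67, 8.08 and 9.66 against 5.90, 6.50 and 5.50 FPKM. It thus lay lower in every EC-Jag1KO library together with both genes it overlaps. Words of 50 bases that also occur in a transcript outside the own cluster made up 0.836% of Hoxb6 and at most 1.46% of any of the 39 genes. For Hoxb7 and Hoxb8 the share was 0.

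Toward the front end of HoxB the same direction was seen with smaller values. Hoxb5, which acts in lung and neural crest development, measured 5.01, 4.94 and 5.99 against 3.23, 4.84 and 4.09 FPKM. The groups were just separated, by 4.94 against 4.84. Hoxb4, a regulator of blood stem cells, measured 12.9, 13.7 and 17.5 against 11.7, 13.3 and 8.96 FPKM and overlapped. Hoxb3, a hindbrain and neck-level gene, measured 4.43, 4.35 and 5.49 against 3.81, 3.78 and 2.99 FPKM and did not overlap. Without both Xist-positive libraries the log2 fold changes of Hoxb4 and Hoxb3 went from -0.35 to -0.085 and from -0.35 to -0.17, and those of Hoxb6, Hoxb7 and Hoxb8 were -0.42, -0.36 and -0.45. Other genes moved the opposite way there, Hoxa6 from -0.40 to -0.59, Hoxa3 from -0.28 to -0.43, Hoxb9 from -0.13 to -0.32 and Hoxc4 from -0.22 to -0.34. The value of Hoxb4 was -0.21 without EC-Jag1KO replicate 3 and -0.23 without wild-type replicate 3, and that of Hoxb5 was -0.21 without EC-Jag1KO replicate 1.

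Toward the ends of the cluster the means of Hoxb9 and Hoxb2 were also lower, within overlapping groups. Hoxb9, at the rear of the expressed stretch, measured 2.10, 2.49 and 1.42 against 1.35, 1.95 and 1.90 FPKM. Hoxb2, below the mean of 1 FPKM, measured 0.770, 1.36 and 1.15 against 0.729, 1.27 and 0.677 FPKM. Hoxb1, a hindbrain gene, had 2 to 7 reads per library and nearly equal means, 0.0829 and 0.0819 FPKM. Hoxb13, at the rear end, had only its 3 reads in EC-Jag1KO replicate 2. In Hoxb9, Hoxb2 and Hoxb1 the groups overlap. The interval for Hoxb9, from -0.55 to 0.30, includes both no change and a change like that of Hoxb8.

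Hoxb8 carries a known target site of the microRNA miR-196a, whose genes Mir196a-1 and Mir196a-2 lie inside HoxB (chr11:96265164-96265265, between Hoxb13 and Hoxb9) and HoxC (chr15:102973350-102973434). MicroRNAs pair with transcripts and lower their output, and the level of miR-196a was not analysed here. The mature RNA is shown with its seed, bases 2 to 8, in capitals, followed by the DNA letters that would pair with it fully, seed match in capitals, and the Hoxb8 site with its differing base in capitals.
mmu-miR-196a-5p: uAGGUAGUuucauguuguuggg
full complement: cccaacaacatgaaACTACCTa
Hoxb8 site: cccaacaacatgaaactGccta
The site lies on the plus strand at chr11:96284888-96284909, 418 bases past the stop codon, and matches 21 of 22 bases. The difference is A18G, counted from 1 at the left end of the complement, and every other Hox transcript matched at most 15 of the 22. That base lies within the seed match, so the site itself does not hold the full seed match. The seed match alone (ACTACCT, 7 letters, on the transcript strand) was present in the longest coding transcript of 11 of 39 Hox genes (28.2%) and of 16.0% of 21877 protein-coding genes, and Hoxa7 held 4 copies. Matches were counted along the whole transcript, not only past the stop codon. Hoxb8 is among the 11 through a match outside the site shown.

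HoxA was mixed. Hoxa6 measured 5.62, 5.78 and 5.30 against 3.97, 2.99 and 5.21 FPKM, and Hoxa4 measured 3.98, 4.87 and 5.03 against 3.90, 3.03 and 3.97 FPKM. Both were separated by the narrowest of margins, 5.30 against 5.21 and 3.98 against 3.97, and the log2 fold change of Hoxa6 went from -0.40 to -0.24 without EC-Jag1KO replicate 2 and to -0.59 without both Xist-positive libraries. Hoxa3, needed for the arteries and glands of the pharynx, measured 18.2, 19.2 and 13.1 against 11.8, 15.7 and 13.3 FPKM and overlapped. Hoxa7 measured 16.8, 18.3 and 19.8 against 17.6, 14.9 and 15.7 FPKM, an overlap at a log2 fold change of -0.18.

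Hoxa5, which patterns the neck and upper chest and has been studied in endothelial cells, differed little in mean. It measured 13.8, 13.4 and 17.0 against 13.5, 13.8 and 15.3 FPKM, which gave a log2 fold change of -0.050 and an interval from -0.32 to 0.22. Hoxa2, a hindbrain and branchial arch gene, was one of the 2 genes on the higher side, at 3.02, 3.86 and 3.40 against 3.61, 3.74 and 4.09 FPKM. Hoxa9 ranged from 1.18 to 1.68 FPKM in wild-type and from 1.18 to 1.33 FPKM in EC-Jag1KO aorta. Several HoxA levels are less certain than those of HoxB: the annotated span of Hoxa3 covers Hoxa4, Hoxa5 and Hoxa6 on the same strand, and the sources used here do not say how reads in overlapping models were assigned.

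HoxC and HoxD added little. Hoxc6 measured 5.94, 4.23 and 6.27 against 5.63, 5.15 and 4.32 FPKM, Hoxc8 1.88, 1.16 and 1.85 against 2.57, 1.49 and 1.51 FPKM, and Hoxc4 2.55, 1.56 and 1.43 against 1.12, 1.68 and 1.47 FPKM. In all 3 the groups overlap, and Hoxc8 is the other gene on the higher side. The annotated span of Hoxc5 covers Hoxc6 and Hoxc8 on the same strand, so the doubt on overlapping models holds for them too. Hoxd8 measured 1.04, 0.922 and 1.57 against 1.23, 0.687 and 0.982 FPKM, and Hoxd9 ranged from 0.298 to 0.510 FPKM in the wild-type group and from 0.163 to 1.07 FPKM in the EC-Jag1KO group. Hoxd3 and Hoxd4, at 0 to 0.0524 and 0 to 0.365 FPKM, overlap each other and a further model named HOXD3 in capitals, which is outside the naming rule.

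**Figure D4:**
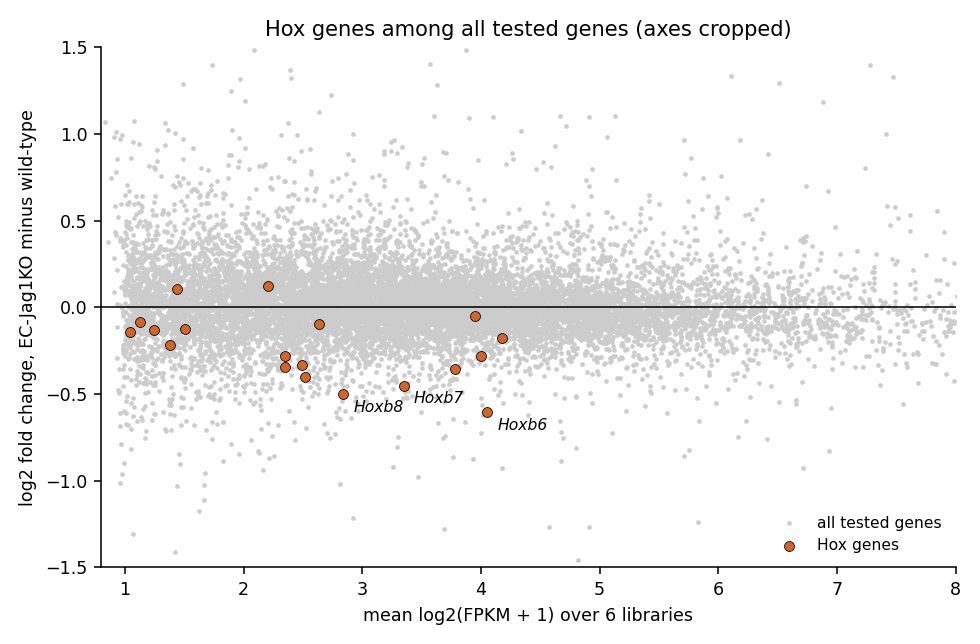
Log2 fold change (EC-Jag1KO minus wild-type) against mean log2(FPKM + 1) for all 12165 tested genes in grey and the 19 Hox genes in orange, with axes cropped so that 207 genes lie outside. The Hox genes lie mostly below 0, with Hoxb6, Hoxb7 and Hoxb8 lowest at -0.61, -0.45 and -0.50, inside the spread of other genes of like level.

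Noncoding transcripts were measured in the same clusters. Of 18 noncoding models between the outermost Hox genes, 5 averaged 1 FPKM or more, all in HoxA or HoxB, and 6, Hotair of HoxC among them, had 0 reads in every library. Hotairm1, transcribed from the front end of HoxA, was the most abundant at 20.1, 17.0 and 25.9 against 19.8, 29.1 and 14.3 FPKM. Its groups overlap widely. All 5 had a negative log2 fold change, from -0.38 for Hoxb5os to -0.0088 for Hoxaas2, and 0 passed the adjusted threshold. Gm15050 and Gm11536 had values of -0.21 and -0.20.

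Hox factors bind DNA together with TALE homeodomain proteins of the Pbx, Meis and Pknox families, whose transcripts were examined next. Of 9 genes 8 averaged 1 FPKM or more and were tested, 6 lower and 2 higher, with 0 passing limma's adjusted test and a median log2 fold change of -0.089. Pknox2 was separated upward, at 5.85, 6.59 and 7.71 against 8.41, 8.11 and 9.04 FPKM. Pknox1, Pbx2 and Meis3 had log2 fold changes of -0.25, -0.15 and -0.13, with adjusted p of 0.747, 0.802 and 0.884 in limma.

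Chromatin regulators that hold Hox genes on or off showed no member past the threshold in limma. Of 10 Trithorax group genes and partners, which keep Hox genes active, all were tested, 7 lower and 3 higher, with a median of -0.014. Psip1 and Kdm6b were at 15.7 to 16.8 and 11.5 to 13.7 FPKM over the 6 libraries. Rbbp5, Kdm6a and Kmt2b had log2 fold changes of -0.11, 0.22 and -0.06. Kdm6a measured 4.57, 4.06 and 6.96 against 5.32, 3.86 and 10.6 FPKM (SE of the log2 fold change 0.32). It was highest in both Xist-positive libraries. Of 22 Polycomb genes, which keep Hox genes silent, 12 lay lower and 10 higher, with a median of -0.021. Rbbp7 had the highest level, 66.2 to 77.6 FPKM, and Pcgf1, Pcgf6, Rnf2 and Suz12 had log2 fold changes of -0.37, 0.24, 0.18 and 0.17, at adjusted p of 0.682 to 0.747.

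Retinoic acid, made from vitamin A, switches on front-end Hox genes in the embryo. Of 18 pathway genes 11 were tested, 8 lower and 3 higher, with a median of -0.089 and 0 past limma's adjusted threshold. Rxra, a partner of the retinoic acid receptors, measured 26.9, 30.3 and 29.6 against 23.6, 23.2 and 22.9 FPKM and did not overlap (log2 fold change -0.30, adjusted p = 0.490 in limma). Cyp26b1, which breaks retinoic acid down, measured 5.52, 6.10 and 5.40 against 7.51, 6.05 and 9.45 FPKM. Dhrs3 and Aldh1a1 had log2 fold changes of -0.23 and -0.37. The 8 ParaHox and Evx genes, relatives of the Hox family, were not tested, since none exceeded 0.0682 FPKM in any library.

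Tissue makeup was compared beside the family's level. The 6 smooth muscle markers, all above 1 FPKM, summed to 13705 to 14374 FPKM in the wild-type group and 11453 to 13615 FPKM in the EC-Jag1KO group. These sums did not overlap. Acta2 and Tagln, both contractile genes, make up most of this sum. The group means of the marker sum and of the Hox sum are both lower in EC-Jag1KO aorta. Within the wild-type group, replicate 3 had the highest Hox sum and the lowest marker sum. Within the EC-Jag1KO group, replicate 3 had the lowest Hox sum and the lowest marker sum. A link between the 2 sums was not tested. Single markers differed in direction. Smtn, Myh11 and Tagln were lower in all EC-Jag1KO libraries than in any wild-type library. Smtn was at 366 to 409 against 270 to 304 FPKM and Myh11 at 1415 to 1576 against 1197 to 1307 FPKM. Tagln was at 4022 to 4429 against 3042 to 3906 FPKM, and Acta2 overlapped. Myocd, a smooth muscle coactivator, was at 27.7 to 31.7 FPKM in wild-type and at 32.4 to 53.4 FPKM in all EC-Jag1KO libraries. Cnn1 was above every wild-type library in 2 of 3. Per 1000 FPKM of the 6 smooth muscle markers the Hox sum was 9.59, 9.98 and 11.3 against 9.31, 8.67 and 9.79 FPKM, which overlap. On the same scale Hoxb6, Hoxb7 and Hoxb8 together were at 2.36, 2.67 and 3.10 against 2.12, 1.88 and 2.05 FPKM, which do not overlap. Those genes were picked for their difference in these libraries, so their ratio is a description only. The sums of the 6 fibroblast markers overlapped, at 1116 to 1365 and 1224 to 1332 FPKM, with Dcn the largest part. Pdgfra, at 14.8 to 15.8 against 17.7 to 21.7 FPKM, was higher in all EC-Jag1KO libraries. So was Lum, at 58.1 to 67.0 against 70.1 to 76.2 FPKM. Dcn, Pi16, Dpt and Col1a1 overlapped. Per 1000 FPKM of fibroblast markers the Hox sum was 111, 105 and 139 against 96.5, 88.7 and 91.6 FPKM, which do not overlap. The sums of the 7 brown adipocyte markers overlapped as well, at 50.6 to 593 and 257 to 426 FPKM. The sum of the 5 mesothelial markers was higher in all EC-Jag1KO libraries, at 0.40 to 0.530 against 1.24 to 2.51 FPKM. Of these markers 0 averaged 1 FPKM, and Krt19 was the largest part, at 0.202 to 0.395 against 0.551 to 1.56 FPKM. Wt1 and Upk3b overlapped, with Upk3b at 0 in wild-type replicates 2 and 3 and EC-Jag1KO replicate 3. The 5 adrenal cortex markers, 2 of them at 0 in every library, summed to 1.92 to 2.10 against 1.32 to 1.84 FPKM, nearly all of it from Star, at 1.81 to 2.07 against 1.32 to 1.72 FPKM. The part of the smooth muscle, fibroblast and mesothelial markers and of Star in the Hox difference was not tested. With smooth muscle level as a covariate Hoxb6, Hoxb7 and Hoxb8 had log2 fold changes of -0.65, -0.58 and -0.89. The covariate was the mean log2(FPKM + 1) of the 6 smooth muscle markers, not their FPKM sum. This mean also lay lower in every EC-Jag1KO library, by a narrow margin, so that fit cannot separate smooth muscle level from genotype. Sums of endothelial, white adipocyte, cardiac and skeletal muscle, lymphocyte, macrophage and Schwann cell markers overlapped between genotypes. The sources used here do not say which length of aorta was taken.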

How the data were processed

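RNA of 6 aorta libraries was measured, 3 per genotype. The authors deposited FPKM values per gene and library. The submitters' processing notes list build mm10 and STAR, HTSeq and edgeR without saying what each did. The sources used here do not give the annotation release, the strand setting or the treatment of overlapping genes. Multiplying FPKM by gene length gave whole reads for 100% of 211650 values (tolerance 0.05 reads), 19889910 to 25914325 reads in genes per library. Values were tested as log2(FPKM + 1) with limma 3.58.1 in R 4.3.3, with an intensity trend and Benjamini-Hochberg adjustment, over the 12165 genes averaging 1 FPKM or more. The pseudocount of 1 understates changes of low genes. The fit was tested on simulated data. The Hox genes and the other lists were chosen with earlier results of these data known. Every Hox gene above that limit was named, except 1 that is not reported here. Of each other list, the member of highest level and up to 4 members of smallest p were named, except 2 that are not reported here. Alternatives were another pseudocount, other filters, quantile normalization, no trend, a replicate block, voom on recovered reads and each library left out. Leaving out or modelling the Xist-positive libraries, and the brown adipocyte and smooth muscle covariates, were chosen after seeing the data. Promoters and microRNAs came from RefSeq (GRCm38.p6) and transcripts from GENCODE M21.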

Additional observations from a re-analysis of the deposited data

How the results depend on the processing

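No Hox gene passed the adjusted threshold under any of the 17 alternatives. Over all genes, limma called 0 in the reported fit, 0 to 4 with each library left out (4 without EC-Jag1KO replicate 1), 2 without both Xist-positive libraries and 1 with Xist as a covariate. The median log2 fold change of the tested Hox genes, -0.22, was -0.29 with a pseudocount of 0.1, -0.30 with voom and -0.37 with the smooth muscle covariate. It was -0.16 with a minimum mean of 0.1 FPKM (26 genes) and -0.094 with no filter (35 genes), where more genes near 0 entered. It ranged from -0.24 to -0.19 with each library left out. With the smooth muscle covariate the log2 fold changes of Hoxa3, Hoxb9, Hoxc4 and Hoxc8 turned to 0.30, 0.34, 0.11 and -0.19, and without both Xist-positive libraries that of Hoxc6 turned to 0.084. With each library left out, Hoxa5 ranged from -0.11 to 0.050 and Hoxc8 from -0.062 to 0.20. The cause of these turns was not tested. Of the 18 tested Hox genes given here, the other 12 kept their direction under all 17 alternatives. Genes of a few reads per library, such as Hoxc12 and Hoxd13, give fold changes of little precision.

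The labels do not say whether replicate numbers pair the libraries. Deviations of same-numbered libraries correlated at 0.055, 0.051 and -0.050, and not every library correlated best with its own number. These correlations cannot settle whether the design was paired, and both Xist-positive libraries carry the number 3. With the replicate block, 0 genes and 0 Hox genes were called, the Hox median was -0.22, and 3 Hox genes in place of 5 had an unadjusted p under 0.05.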
